A study of Mus musculus with 6 samples.

Results

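The genes described here encode enzymes that modify collagen: the catalytic subunits of collagen prolyl 4-hydroxylase (P4ha1, P4ha2 and P4ha3), the lysyl hydroxylases (Plod1, Plod2 and Plod3) and the lysyl oxidases Lox, Loxl1, Loxl2 and Loxl3. They were taken by symbol from the deposited expression table, in which all 10 were found among 29587 gene rows. The samples were 3 libraries of messenger RNA from apoptotic osteoblasts of old mice and 3 from those of young mice. The labels class the mice only as old or young and give no age in weeks, strain or sex, and their genotype entry reads "none" for every sample. In both groups, cells that grew out of bone pieces were passaged 3 times, kept for 3 days in osteogenic medium and killed with 0.5 h of ultraviolet light, after which over 90% took up Trypan Blue. The profiles are therefore those of cultured cells that were dead or dying when RNA was taken, and the labels leave unstated whether separate animals supplied the 3 libraries of each group. P-values accordingly measure the spread between libraries, which may be technical.

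Collagen chains are modified inside the endoplasmic reticulum before they fold. Prolyl 4-hydroxylases convert proline to 4-hydroxyproline, which keeps the collagen helix stable at body temperature, and lysyl hydroxylases convert lysine to hydroxylysine, a site for sugar attachment and for cross-links. Both kinds of enzyme need oxygen, iron, 2-oxoglutarate and ascorbate. After secretion, lysyl oxidases, which carry copper, oxidise lysine and hydroxylysine so that neighbouring collagen or elastin molecules become covalently linked. In bone these steps set the strength of the type I collagen network.

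Values are given as RPKM, in which a gene's reads are divided by its length and by the depth of the library, so levels of different genes can be compared. Between 64881180 and 84535939 reads could be recovered per library. The label of osteoblast was checked against marker genes: type I collagen Col1a1 averaged 1528 RPKM in old and 1550 RPKM in young libraries, and 7 of 10 osteoblast markers reached 1 RPKM on average over the 6 libraries. The 10 markers summed to 4027 to 4105 RPKM in old and 3106 to 4254 RPKM in young libraries. Spp1, the matrix protein osteopontin, was at 691, 694 and 811 RPKM in old, against 376, 233 and 262 RPKM in young libraries (limma adjusted p = 0.0307). Sp7, the osteoblast transcription factor osterix, was at 4.89, 4.88 and 4.94 RPKM in old, against 8.40, 7.89 and 9.02 RPKM in young libraries (limma adjusted p = 0.0186). Runx2, which acts before Sp7 in osteoblast development, averaged 3.91 RPKM in old and 5.11 RPKM in young libraries. The groups did not overlap in Spp1, Sp7 and Runx2, beside 20.8% of all tested genes without overlap. Bglap and Bglap2, both higher in old libraries, did not overlap either, but they failed the filter and are not among the tested genes. Calls such as those of Spp1 and Sp7 were made for 1.57% of all tested genes. The alkaline phosphatase gene Alpl and the osteocalcin gene Bglap stayed below 1 RPKM on average, with 0.487 and 0.742 RPKM in old and 0.614 and 0.416 RPKM in young libraries. Of the markers of other cells, those of endothelial cells, adipocytes and erythroid cells summed to at most 0.16 RPKM in any library, the leukocyte markers to 9.21 to 10.5 RPKM in old and 8.25 to 9.53 RPKM in young, mostly from Lyz2, and the osteocyte markers to 2.51 to 2.69 RPKM in old and 1.14 to 2.03 RPKM in young. The chondrocyte markers summed to 53.4 to 57.0 RPKM in old and 34.7 to 73.6 RPKM in young libraries, with Col2a1 at 38.6 RPKM in old and 40.7 RPKM in young and Sox9 at 16.3 RPKM in old and 17.3 RPKM in young on average. The osteoclast markers summed to 27.0 to 28.9 RPKM in old and 28.9 to 36.5 RPKM in young libraries, nearly all from Ctsk, while Acp5, Ocstamp and Oscar were listed at 0 in at least 1 library. The part of these markers, Spp1, Sp7 and Runx2 included, in the differences below was not tested. Ptprc, the leukocyte common antigen, averaged 0.00045 RPKM in old and 0.00094 RPKM in young libraries. In bulk RNA, fewer cells of a type and less RNA per cell cannot be told apart.

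Young replicate 1 stood apart from every other library. Its log2 values correlated with those of young replicates 2 and 3 at 0.949 and 0.962 across tested genes, while these correlated with each other at 0.996 and the old replicates among themselves at 0.995 to 0.997 (Pearson's r across genes, which are not independent replicates). With old replicates 1 to 3, young replicate 1 correlated at 0.964, 0.968 and 0.959, and young replicates 2 and 3 at 0.977 to 0.984. Young replicate 1 was thus no closer to its own group than to the old libraries. It also had the fewest reads and the smallest share of mitochondrially encoded reads, 1.05% against 2.13% and 2.29% in the other young libraries and 1.62 to 1.89% in old libraries. All 9 tested members were lower in young replicate 1 than in both other young libraries, at 0.497 to 0.87 times their mean, a position that 57.2% of all tested genes shared. For each tested member the difference is therefore given below with and without that library. Lists of related genes have their medians both ways, while most single genes outside the members have values from all libraries only.

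**Figure D1:**
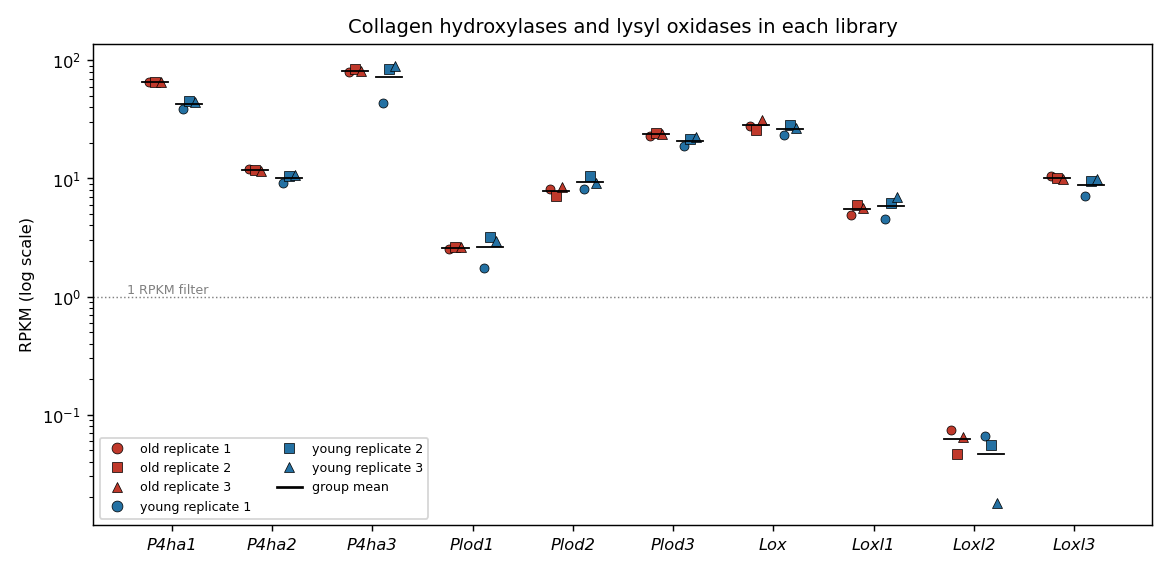
RPKM of the 10 genes (log axis) in each library, with old libraries in red on the left and young libraries in blue on the right of each pair. Marker shapes give the replicate number, black bars the group means, and the dotted line the 1 RPKM used as a filter. P4ha1 is the gene whose group means lie furthest apart as a ratio, Loxl2 lies below the filter in all 6 libraries, and the circle of young replicate 1 is the lowest young point of every other gene.

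The member called with age was P4ha1. Of 9 members tested, P4ha1 rose in old cells and none fell, where 1.57% of all 12015 tested genes were called in either direction and 1.47% were called higher (limma, Benjamini-Hochberg adjusted p under 0.05 over all tested genes). The groups of P4ha1, P4ha2 and Plod3 did not overlap, which is 33.3% of the tested members against 20.8% of all tested genes. With young replicate 1 left out, 7 of the 9 did not overlap, or 77.8%, against 62.5% of all tested genes. The median log2 fold change over the 9 members was 0.17, beside 0.01 over all tested genes. It fell to 0.04 without young replicate 1, beside -0.05 over all tested genes. Loxl2 did not reach 1 RPKM in any library and was not tested. All 9 tested members exceeded 1 RPKM in both groups, so that none of them entered through the group in which it was higher.

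P4ha1 encodes the alpha subunit isoform that makes up the main prolyl 4-hydroxylase of most cells, and lies on chromosome 10 (59323296 to 59373304, plus strand, mm10). It was at 65.7, 65.1 and 65.4 RPKM in old replicates 1 to 3, against 38.9, 45.4 and 44.0 RPKM in young replicates 1 to 3. The old libraries lay within 1.00% of their mean from lowest to highest, and all 3 were above every young library. The mean was 1.53 times as high in old cells, 65.4 ± 0.327 RPKM against 42.8 ± 3.44 RPKM (SD, n = 3 each), and the log2 fold change of RPKM + 1 was 0.60 ± 0.09 (SE, limma adjusted p = 0.0378). By p-value P4ha1 ranked 164 among the tested genes, and its log2 fold change was above that of 97.6% of them.

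The size of the P4ha1 difference was steadier than its call. Without young replicate 1 the log2 fold change was 0.54 ± 0.05 (SE, limma adjusted p = 0.000672). Leaving out old replicate 1, 2 or 3 gave 0.60, 0.61 and 0.60 (limma adjusted p = 0.276, 0.233 and 0.245), in fits that called 0.691, 0.691 and 0.666% of all tested genes. Leaving out young replicate 2 or 3 gave 0.65 and 0.63 (limma adjusted p = 0.0829 and 0.179), where 1.17 and 0.724% were called. The call of P4ha1 was thus lost without any 1 of these 5 libraries, in fits that rest on fewer libraries. It was also lost without a filter on low values (adjusted p = 0.0542) and under quantile normalization (adjusted p = 0.0549). A block for replicate number, which was not taken as a pairing, gave a limma adjusted p of 0.268.

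P4ha2 encodes the second alpha subunit isoform, abundant in cartilage and bone cells. It was at 12.0, 11.7 and 11.6 RPKM in the old libraries, against 9.12, 10.5 and 10.6 RPKM in the young libraries. Its old libraries all lay above its young libraries, but the difference of 0.21 ± 0.09 on the log2 scale did not pass the test (SE, limma adjusted p = 0.501). It came to 0.14 ± 0.05 without young replicate 1 (SE, limma adjusted p = 0.0686).

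P4ha3, the isoform described last and found at low levels in most tissues, was the most abundant of the 10 genes in these cultures. It was at 79.1, 83.8 and 81.0 RPKM in the old libraries, against 43.5, 85.3 and 89.8 RPKM in the young libraries. The old libraries lay between young replicate 1 and the other young libraries, so that the sign of the difference turned with that library. The log2 fold change was 0.23 ± 0.28 with all libraries (SE, limma adjusted p = 0.933) and -0.11 ± 0.05 without young replicate 1 (SE, limma adjusted p = 0.155).

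The alpha subunits therefore made up different shares of their summed RPKM in different libraries. P4ha1 supplied 41.9, 40.5 and 41.4% of it in the old libraries, against 42.5, 32.2 and 30.4% in the young libraries, and P4ha3 supplied 50.5, 52.2 and 51.3% in old against 47.5, 60.4 and 62.2% in young. By these shares young replicate 1 lay nearer to the old libraries than to the other young libraries. The summed RPKM was 157, 161 and 158 in old and 91.5, 141 and 144 in young libraries. P4hb, the beta subunit shared by all 3 isoforms and also a protein disulfide isomerase, was at 487 ± 6.60 RPKM in old and 447 ± 17.95 RPKM in young libraries (SD, n = 3 each), a difference that did not pass the test (limma adjusted p = 0.8).

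P4ha1 is known as a target of the hypoxia-inducible factor HIF-1, which binds DNA at the core letters ACGTG or GCGTG. The 250 bases before the RefSeq start of each alpha subunit gene are shown to set the called isoform beside the other two (GRCm38.p6, plus strand of chr10:59323046-59323295 for P4ha1, chr11:54100674-54100923 for P4ha2 and chr7:100285270-100285519 for P4ha3). Capitals mark every match to either core on either strand.
P4ha1: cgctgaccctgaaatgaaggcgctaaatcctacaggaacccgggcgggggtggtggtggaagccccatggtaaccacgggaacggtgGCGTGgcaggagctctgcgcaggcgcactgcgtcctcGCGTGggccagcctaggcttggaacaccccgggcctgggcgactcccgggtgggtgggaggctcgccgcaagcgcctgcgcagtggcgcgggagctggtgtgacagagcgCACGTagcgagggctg
P4ha2: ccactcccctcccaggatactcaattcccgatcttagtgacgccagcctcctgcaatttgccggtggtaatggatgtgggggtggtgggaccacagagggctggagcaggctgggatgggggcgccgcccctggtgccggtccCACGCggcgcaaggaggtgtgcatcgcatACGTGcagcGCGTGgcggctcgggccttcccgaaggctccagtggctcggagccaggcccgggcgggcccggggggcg
P4ha3: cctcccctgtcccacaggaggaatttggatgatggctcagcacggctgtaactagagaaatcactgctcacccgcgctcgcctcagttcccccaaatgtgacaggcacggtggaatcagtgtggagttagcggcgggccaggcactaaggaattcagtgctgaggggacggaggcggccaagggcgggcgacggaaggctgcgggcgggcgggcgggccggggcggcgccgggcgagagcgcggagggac
P4ha1 and P4ha2 each held 3 matches and P4ha3 held 0 in this window. The P4ha2 window lies inside the span over which that gene was counted, which starts at 54100095. The windows of P4ha1 and P4ha3 end just before their counted spans. A match of these short cores stood in 38.6% of all 32851 RefSeq promoter windows of that length, both strands counted, and the cores can overlap the E-box CACGTG, which none of these windows held. Promoter windows were matched by symbol for 5 of the 10 members, of which 4 held a match. The matches describe the sequence only.

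Among the lysyl hydroxylases, Plod3 was the most abundant, and none was called with all 6 libraries. Plod3, which also transfers sugars to hydroxylysine (chromosome 5, 136987019 to 136996648, plus strand, mm10), was at 22.8, 24.2 and 24.0 RPKM in the old libraries, against 18.7, 21.5 and 22.5 RPKM in the young libraries. The old libraries lay just above the young, and the difference of 0.17 ± 0.10 on the log2 scale did not pass the test (SE, limma adjusted p = 0.654). That difference was 0.10 without young replicate 1 (limma adjusted p = 0.176). Plod3 shares 529 exonic bases, 11.7% of its length, with Znhit1 on the opposite strand. Znhit1 averaged 43.7 RPKM in old and 39.9 RPKM in young libraries. No source used here says whether counting used strand, so the assignment of reads over the shared bases is uncertain.

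Plod2 hydroxylates the telopeptide lysines that give rise to the stable pyridinoline cross-links of bone collagen (chromosome 9, 92542223 to 92608428, plus strand, mm10). It was at 8.09, 7.13 and 8.48 RPKM in the old libraries, against 8.21, 10.4 and 9.20 RPKM in the young libraries. Young replicate 1 lay inside the old range and the other young libraries above it. With all libraries the log2 fold change was -0.20 ± 0.12 (SE, limma adjusted p = 0.666). Without young replicate 1 Plod2 was called lower in old cells, at -0.28 ± 0.09 (SE, limma adjusted p = 0.0462). In that fit 32.6% of all tested genes were called and 19.4% were called lower, so calls were frequent over all genes. Plod2 shares 346 exonic bases with the predicted gene Gm38391 on the opposite strand, which was near 1 RPKM.

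Plod1, which hydroxylates lysines of the helical part of collagen (chromosome 4, 147909753 to 147936767, minus strand, mm10), was at 2.51, 2.64 and 2.64 RPKM in the old libraries, against 1.75, 3.22 and 2.97 RPKM in the young libraries. The old libraries again lay between young replicate 1 and the other young libraries. The log2 fold change was 0.0037 ± 0.17 with all libraries (SE, limma adjusted p = 0.999) and -0.19 ± 0.06 without young replicate 1 (SE, limma adjusted p = 0.0564).

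Within the lysyl hydroxylases the balance between Plod2 and Plod3 separated the groups in every library. Plod2 made up 24.2, 21.0 and 24.1% of the summed Plod RPKM in the old libraries, against 28.6, 29.6 and 26.6% in the young libraries. Plod3 made up 68.3, 71.3 and 68.3% in old against 65.3, 61.3 and 64.9% in young. These shares held their order in young replicate 1, unlike the levels of Plod2 itself. They were noticed after the values were seen and are given as a description with no test.

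**Figure D2:**
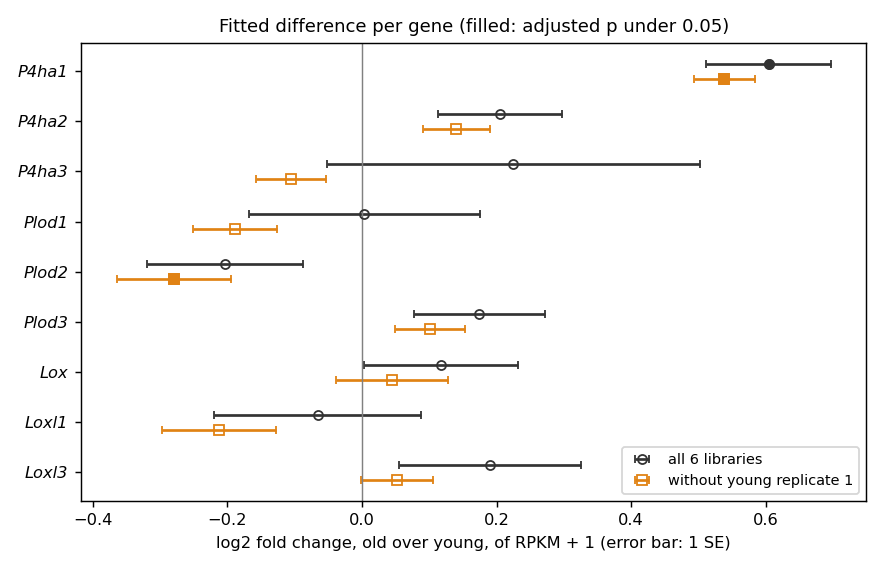
Log2 fold change of RPKM + 1, old over young, for the 9 tested members, with bars of 1 SE from limma. Black circles use all 6 libraries and orange squares leave out young replicate 1, and filled symbols mark an adjusted p under 0.05. P4ha1 stays at 0.60 and 0.54, while P4ha3 and Plod1 change sign and Plod2 becomes filled.

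Lox, the lysyl oxidase first described and a cross-linker of collagen and elastin, was the most abundant lysyl oxidase (chromosome 18, 52516069 to 52529867, minus strand, mm10). It was at 28.1, 25.7 and 31.2 RPKM in the old libraries, against 23.4, 28.2 and 26.6 RPKM in the young libraries. The groups overlapped, with young replicate 2 above 2 of the old libraries, and the log2 fold change was 0.12 ± 0.11 (SE, limma adjusted p = 0.881). It was 0.04 ± 0.08 without young replicate 1 (SE, limma adjusted p = 0.702).

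Loxl3, which mice need for normal palate and spine development, was at 10.4, 10.1 and 9.95 RPKM in the old libraries, against 7.07, 9.52 and 9.97 RPKM in the young libraries. Young replicate 3 lay between old replicates 2 and 3, so the groups overlapped. The log2 fold change was 0.19 ± 0.14 with all libraries and 0.05 ± 0.05 without young replicate 1 (SE, limma adjusted p = 0.784 and 0.471). Loxl3 shares 535 exonic bases, 11.6% of its length, with the mitochondrial protease gene Htra2 on the opposite strand. Htra2 averaged 8.19 RPKM in old and 6.27 RPKM in young libraries, so the assignment of reads is uncertain here too.

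Loxl1, which acts mainly on elastin, was at 4.95, 5.98 and 5.67 RPKM in the old libraries, against 4.57, 6.22 and 6.90 RPKM in the young libraries. The old libraries fell between young replicate 1 and the other young libraries. The log2 fold change was -0.07 ± 0.15 with all libraries (SE, limma adjusted p = 0.975) and -0.21 ± 0.08 without young replicate 1 (SE, limma adjusted p = 0.0962).

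Loxl2, known for cross-linking type IV collagen of basement membranes, was close to undetected. It was at 0.0744, 0.0466 and 0.0642 RPKM in the old libraries, against 0.0656, 0.0548 and 0.0179 RPKM in the young libraries. These values correspond to 34, 19 and 28 recovered reads in old and 23, 23 and 8 in young libraries, and the groups overlapped. It shares 301 exonic bases with the predicted gene Gm27177 on the opposite strand, which was at 0.211 RPKM in old and 0.212 RPKM in young libraries. Lox supplied 64.5, 61.5 and 66.6% of the summed RPKM of the 4 lysyl oxidases in old and 66.6, 64.1 and 61.2% in young libraries, so the make-up of this family did not separate the groups.

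In old cells the order of the levels ran from P4ha3 through P4ha1, Lox, Plod3, P4ha2, Loxl3, Plod2, Loxl1 and Plod1 to Loxl2, and no neighbours in that order overlapped in their libraries. In young cells P4ha3, P4ha1, Lox, Plod3 and P4ha2 led in the same order, followed by Plod2 ahead of Loxl3. There the libraries of P4ha3 and P4ha1, of P4ha2 and Plod2, and of Plod2 and Loxl3 overlapped. The coefficient of variation of the 9 tested members was 0.501 to 9.75% among old libraries and 8.06 to 35.1% among young libraries. It was larger in young for 8 of the 9 members, Lox being the exception with 9.75% in old and 9.40% in young.

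P4ha1 was set against each other tested member within the same library. It was chosen as numerator because it was the called member, so the ratios restate its difference in another form and are no further evidence of it. Its ratio to P4ha2 was 5.49, 5.56 and 5.63 in the old libraries, against 4.26, 4.31 and 4.14 in the young libraries, and young replicate 1 lay within its own group. The ratio to Plod3 was 2.88, 2.68 and 2.72 in old, against 2.07, 2.11 and 1.96 in young, and that to Plod2 was 8.12, 9.12 and 7.71 in old, against 4.74, 4.37 and 4.78 in young. The groups overlapped in the ratio to P4ha3, at 0.831, 0.776 and 0.807 in old, against 0.894, 0.533 and 0.489 in young. In the other 7 ratios they did not. All 8 ratios share P4ha1, and they are given as a description. Exact permutation tests of their log2 values gave an adjusted p of 0.4 for the ratio to P4ha3 and 0.114 for the other 7. With 3 libraries per group that test could not give a p under 0.1, so it decides nothing here.

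**Figure D3:**
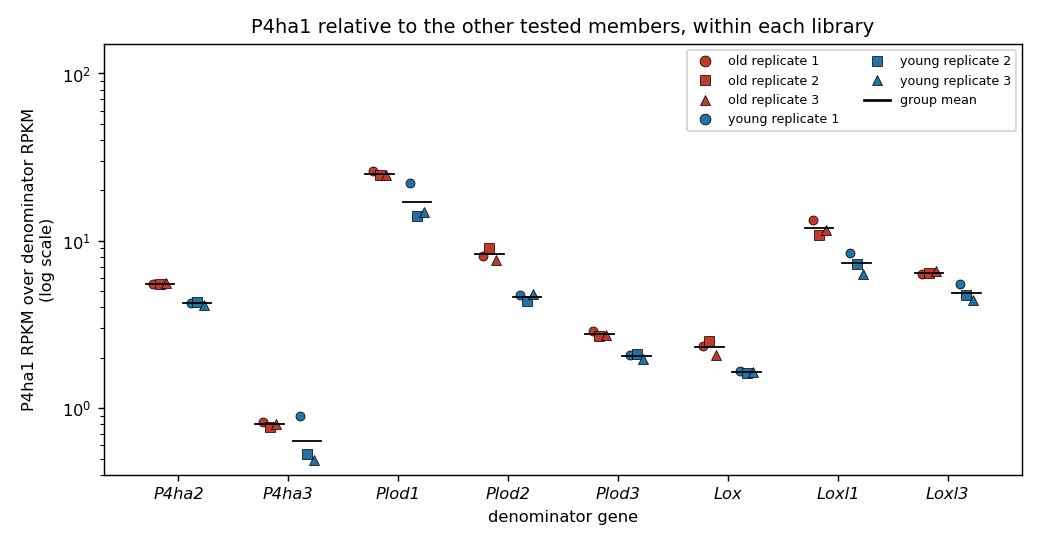
P4ha1 RPKM divided by the RPKM of each other tested member in the same library (log axis), old libraries in red on the left and young libraries in blue on the right, with replicate numbers as shapes and group means as bars. The old libraries lie above the young for every denominator except P4ha3, where young replicate 1 is at 0.894 and the old libraries at 0.776 to 0.831.

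P4ha1 was also set against the collagen chains its product modifies. Relative to Col1a1 it stood at 4.27, 4.19 and 4.38% in the old libraries, against 3.66, 2.58 and 2.40% in the young libraries. Relative to Col1a2 it stood at 8.65, 9.22 and 8.90% in old, against 6.30, 4.49 and 4.63% in young. Old libraries were above young in both ratios, with young replicate 1 the nearest to them. Since P4ha1 was again the numerator, both ratios restate its difference and are no further evidence of it. Plod2 relative to Col1a1 did not separate the groups, at 0.526, 0.459 and 0.568% in old against 0.773, 0.591 and 0.503% in young, nor did Lox relative to Col1a1.

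The genes around these enzymes were followed in 6 lists. These held 78 genes in the deposited table, of which 60 were tested. With all libraries none of the 46 tested genes outside the hypoxia list was called in either direction, beside 1.57% of all tested genes, and the hypoxia list had 3 called genes, all higher in old cells. At an unadjusted p under 0.05 there were 1349 genes among all tested.

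Of 12 tested partners that act with the hydroxylases in the endoplasmic reticulum, 0 were called, and the list's median was 0.08 on the log2 scale. That median was -0.03 without young replicate 1. The prolyl 3-hydroxylase P3h2 was at 13.2, 12.8 and 15.8 RPKM in old, against 4.74, 8.78 and 10.7 RPKM in young libraries, a log2 difference of 0.78 ± 0.27 (SE, limma adjusted p = 0.339). P3h2 shares 28.4% of its length with the predicted gene Gm4524 on the opposite strand, so its value is uncertain. Tmem38b, an ion channel of the endoplasmic reticulum, and P3h4, a scaffold of lysyl hydroxylation, had differences of -0.18 ± 0.12 and 0.14 ± 0.10 (SE, limma adjusted p = 0.756 and 0.782). Serpinh1, the collagen chaperone HSP47, was at 346 ± 12.6 RPKM in old and 323 ± 42.9 RPKM in young libraries (SD, n = 3 each). When young replicate 1 was left out, P3h2 and the cyclophilin gene Ppib were called higher and the prolyl isomerase gene Fkbp14 lower, beside 32.6% of all tested genes called in that fit. In 2 of these 3 genes young replicate 1 lay nearer to the old libraries than to the other young libraries. It was above every old library in Ppib and below every old library in Fkbp14.

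Of 9 tested genes of procollagen export and processing, 0 were called with all libraries, and their median log2 fold change was -0.08. That median was -0.24 without young replicate 1. Pcolce2, an enhancer of the procollagen C-proteinase, was at 1.43, 1.23 and 1.32 RPKM in old, against 1.83, 1.97 and 1.78 RPKM in young libraries, a log2 difference of -0.30 ± 0.08 (SE, limma adjusted p = 0.183). The coat protein gene Sec23a and the collagen regulator Creb3l1 had differences of -0.16 ± 0.14 and 0.17 ± 0.18 (SE, limma adjusted p = 0.846 and 0.908). Without young replicate 1, 5 of the 9 were called lower, among them Bmp1, which also activates Lox, and Mia3, which loads procollagen into carriers. Over all tested genes 19.4% were called lower in that fit. For 4 of these 5 genes the library left out lay nearer to the old libraries than to the other young ones. In Bmp1 and Mia3 it lay below every old library.

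Of 8 tested partners of the lysyl oxidases, 0 were called with all libraries. Their median log2 fold change was 0.06, and -0.17 without young replicate 1. Fbln5 and Efemp2, the fibulins that guide lysyl oxidases to elastic fibres, had differences of -0.28 ± 0.11 and 0.19 ± 0.08 (SE, limma adjusted p = 0.397 and 0.485). The groups of Fbln5, Efemp2 and Slc31a1, 3 of the 8, did not overlap, beside 20.8% of all tested genes. The copper importer gene Slc31a1 was at 5.80 ± 0.255 RPKM in old and 5.32 ± 0.196 RPKM in young libraries (SD, n = 3 each), a difference of 0.11 ± 0.08 (SE, limma adjusted p = 0.819). Loxl4, the lysyl oxidase outside the 10 members, was at 4.77 ± 0.273 RPKM in old and 4.54 ± 1.38 RPKM in young libraries (SD, n = 3 each). Leaving out young replicate 1 gave 4 of the 8 lower and 0 higher, beside 19.4% of all tested genes lower. In all 4 of them that library was nearer to the old libraries than to the rest of its group, yet outside the old range.

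No collagen chain was called with all libraries, and the direction of the list depended on young replicate 1. Over 12 tested chains the median was 0.06 on the log2 scale, and all 12 were lower in young replicate 1 than in both other young libraries. The 3 of smallest p were Col4a1, Col6a2 and Col1a2, with differences of 0.53 ± 0.38, 0.41 ± 0.35 and -0.20 ± 0.20 (SE, limma adjusted p = 0.785, 0.84 and 0.9). These differences came to 0.07, -0.01 and -0.42 when young replicate 1 was left out. Without young replicate 1, 7 of the 12 were called lower in old cells, Col1a1 and Col1a2 among them, and the median was -0.27, beside -0.05 over all tested genes, of which 19.4% were called lower. All 7 had young replicate 1 nearer to the old libraries than to young replicates 2 and 3, but below every old library. Col1a1, for example, was at 1062 RPKM in young replicate 1 and at 1492 to 1553 RPKM in the old libraries. In that fit P4ha1 was called higher, Plod2 lower, and the other 7 tested members were not called.

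Of 14 tested genes that respond to low oxygen, 3 rose in old cells and 0 fell, beside 1.47% of all tested genes called higher. The median log2 fold change was 0.51, and 13 of the 14 were positive. Groups did not overlap in 12 of the 14, beside 20.8% of all tested genes. Pfkfb3, Pfkfb4, Adm, Car9 and Car12, also on the list, stayed below 1 RPKM in every library and were not tested. In each of these the groups overlapped. Eno1, a glycolytic enzyme, was at 72.0 ± 2.16 RPKM in old and 42.1 ± 0.818 RPKM in young libraries (SD, n = 3 each), with a log2 difference of 0.76 ± 0.08 (SE, limma adjusted p = 0.00754). Aldoa, also glycolytic, was at 92.2 ± 2.88 RPKM in old and 53.5 ± 4.50 RPKM in young libraries, and Bnip3, a mitophagy receptor, at 12.7 ± 0.556 RPKM in old and 7.63 ± 0.548 RPKM in young libraries (SD, n = 3 each, limma adjusted p = 0.0153 and 0.0224). Bnip3 shares 22.3% of its length with the predicted gene Gm45507 on the opposite strand. With young replicate 1 left out, 12 of the 14 were called higher, beside 13.2% of all tested genes, and the median was 0.50. In 1 of these 12 genes young replicate 1 lay nearer to the old libraries. The calls of Aldoa and Bnip3 were lost without any 1 of the other 5 libraries, and that of Eno1 without any 1 of them but young replicate 2. Those of Aldoa and Bnip3 were also lost under median-ratio scaling (limma adjusted p = 0.0672 and 0.0565), that of Bnip3 under quantile normalization (limma adjusted p = 0.0598) and that of Aldoa with the length and GC trends removed (limma adjusted p = 0.0645). The rise of glycolytic genes in these libraries was already known when the list was drawn up, so the list is no independent evidence.

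The oxygen sensors were not called. Of 5 tested genes, which were sensors, an ascorbate transporter and Hif1a, 0 were called. The median log2 fold change was 0.0032, the value of Hif1a. The prolyl hydroxylase Egln2, the asparaginyl hydroxylase Hif1an and the ascorbate transporter Slc23a2 had differences of -0.15 ± 0.16, -0.10 ± 0.11 and 0.17 ± 0.17 (SE, limma adjusted p = 0.906, 0.919 and 0.88). Hif1a itself was at 17.5 ± 2.59 RPKM in old and 17.6 ± 3.53 RPKM in young libraries (SD, n = 3 each). With young replicate 1 left out, the list's median was -0.02 and again 0 were called.

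**Figure D4:**
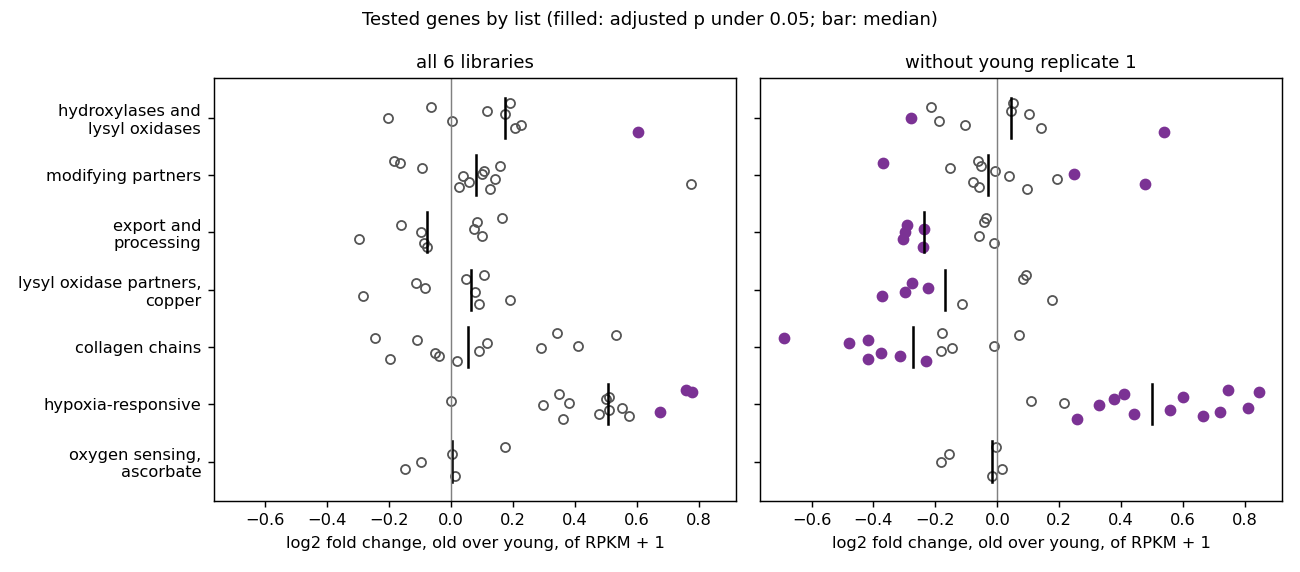
Log2 fold change of RPKM + 1, old over young, of the tested genes of each list, with all 6 libraries on the left and without young replicate 1 on the right. Each circle is a gene, filled where the adjusted p is under 0.05, and bars are medians. The collagen chains shift from a median of 0.06 to -0.27 when the library is left out, while the hypoxia-responsive genes stay at 0.51 and 0.50.

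By the pattern of its log2 values over the 6 libraries, P4ha1 was most like Mov10, Lgals3bp and Nr1d1, with Pearson's r of 0.9996, 0.9991 and 0.9991 as a description over 6 libraries. With so few libraries 49 named genes had r above 0.99. Lgals3bp, which encodes a secreted glycoprotein that binds galectin-3, was at 42.7, 40.9 and 42.3 RPKM in old, against 2.86, 7.86 and 6.49 RPKM in young libraries. The helicase gene Mov10 was at 2.64, 2.61 and 2.66 RPKM in old, against 1.26, 1.64 and 1.54 RPKM in young libraries. Nr1d1, a nuclear receptor of the circadian clock, was at 11.8, 12.0 and 12.2 RPKM in old, against 5.61, 7.05 and 6.91 RPKM in young libraries. In all 3 genes, as in P4ha1, the old libraries were close together and young replicate 1 was the lowest. The genes were picked by their likeness to P4ha1 over these same libraries, so the shared pattern follows from that choice. Nr1d1 shares 8.55% of its length with Thra on the opposite strand.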

How the data were processed

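Per the submitters' processing notes, fastp, STAR, HTSeq, edgeR and the build mm10 were used; versions, annotation and strand setting were not given in the sources used here. Values are RPKM as the authors deposited them, in 29587 rows with exon positions and lengths, and no replicates were pooled. RPKM times length came out as whole reads within 0.01 for 100% of values. Of genes with 1 to 5 reads, 77.5 to 79.3% had an even number, so reads are not independent molecules, and 3 reads in a 1 kb gene equal 0.0355 to 0.0462 RPKM, for counting error only.

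Genes with at least 1 RPKM in at least 3 libraries (12015) entered a limma fit (version 3.58.1, R 4.3.3) of log2(RPKM + 1) with group as sole term and a variance trend. P-values are two-sided and adjusted by Benjamini-Hochberg over all tested genes, with 0.05 as the threshold. Fold changes on this scale understate those of low genes. Alternatives covered pseudocounts, filters, scalings, variance models, library weights, voom on recovered reads, a replicate block, gene length trends (loess, span 0.5), thresholds and each library left out; length with GC content, available for 11655 tested genes, was added after seeing the data. Members and lists were chosen with earlier results of these data known. The text names all members, the 3 tested genes of smallest p per list and the 3 most like P4ha1. Other genes named from the lists (Spp1, Sp7, Runx2, P4hb, Serpinh1, Ppib, Fkbp14, Bmp1, Mia3, Loxl4, Col1a1, Hif1a) were chosen after their values were seen. The remaining marker genes and the untested hypoxia-responsive genes were also named outside the rule of smallest p.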

Additional observations from a re-analysis of the deposited data

How the results depend on the processing

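With all libraries 177 genes were higher and 12 lower, 1 member was higher and 0 lower, and 3 pathway genes were higher and 0 lower. Leaving out 1 library in turn gave 80 to 1589 genes higher and 0 to 2329 lower, 0 to 1 members higher and 0 to 1 lower, and 0 to 14 pathway genes higher and 0 to 17 lower, every upper end coming without young replicate 1. Library weights, which gave young replicate 1 a weight of 0.0425, gave 2119 genes higher and 2957 lower, 2 members higher (P4ha1 and P4ha2) and 3 lower (Plod1, Plod2 and Loxl1), and 16 pathway genes higher and 17 lower. Old and young replicates with the same number deviated together at -0.03, -0.44 and 0.33, so the numbers were not taken as pairs; with the replicate block, 82 genes were higher and 0 lower, 0 members higher and 0 pathway genes higher, with P4ha1, Eno1, Aldoa and Bnip3 at adjusted p of 0.268, 0.125, 0.138 and 0.195. No member was called higher without a filter or under quantile normalization (0 each), and a log2 fold change of at least 1 left 106 genes higher and 0 lower, 0 members and 0 pathway genes. A mean of at least 5 RPKM gave 99 genes higher. An adjusted p under 0.1 gave 62 genes lower and 7 pathway genes higher. Removing the length trend gave 38 genes lower, and length with GC content 44. P4ha1 stayed between 0.54 and 0.65 on the log2 scale and was called in 11 of 14 other settings and 1 of 6 fits without a library. Among members and the genes of smallest p per list, signs turned without 1 library for P4ha3 (range -0.11 to 0.41 over the 6 fits), Plod1 (-0.19 to 0.12), Loxl1 (-0.21 to 0.03997), Creb3l1 (-0.0361 to 0.28), Col6a2 (-0.0102 to 0.63), Slc23a2 (-0.00431 to 0.32) and Egln2 (-0.26 to 0.0166). They also turned with library weights for P4ha3 (-0.14), Plod1 (-0.17), Creb3l1 (-0.0637) and Col6a2 (-1.7e-05), and for Plod1 under upper-quartile scaling (-0.0165), quantile normalization (-0.0119) and length with GC content (-0.0214). Of the other genes named from the lists, values crossed 0 over the fits without 1 library for Col1a1 (-0.23 to 0.16), Loxl4 (-0.11 to 0.26), Hif1a (-0.15 to 0.12), Ppib (-0.0111 to 0.25), Serpinh1 (-0.00827 to 0.17), Bmp1 (-0.24 to 0.0105) and Mia3 (-0.3 to 0.0042), and over the other settings for Col1a1 (-0.24 to 0.0913), Loxl4 (-0.0143 to 0.12) and Hif1a (-0.0742 to 0.0621). None of these was called in the comparison of all 6 libraries, and the cause was not tested.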
